A study of Mus musculus with 6 samples.

Results

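Kbtbd11, Sh2d5, Kif1a and Syt8 are 4 of the 53715 genes in the deposited gene-count table. They were picked by name from the stimulated against sham contrast of that table, to be set beside the reads of their transcripts, summed per gene, in the transcript tables of the same libraries. Because the contrast itself chose them, their differences are described here without a test. RNA came from cells sorted as CD146+CD45-CD31- pericytes, the cells that wrap capillaries, out of the gastrocnemius-soleus muscles of wild-type C57BL/6J male mice aged 14 weeks. The stimulated group was 3 mice whose lower leg muscles made 40 electrically driven contractions, 20 eccentric and 20 concentric, within about 10 minutes, with collection 3 hours later. The sham group was 3 mice of the same strain, age and sex that were not stimulated. The sort gate is what defines the cells, and the labels name no transgene or reporter.

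The 4 proteins belong to different families. KBTBD11 carries a BTB domain and kelch repeats, a pairing found in adaptors that bring substrates to the CUL3 ubiquitin ligase. SH2D5 is an adaptor best known from brain, where it binds the Rac1 regulator BCR. KIF1A is a kinesin motor that carries synaptic vesicle precursors along axons, and SYT8 is a synaptotagmin, a membrane protein with C2 domains of the kind that act in vesicle fusion. Kif1a, Sh2d5 and most synaptotagmins are thus known mainly from neurons and secretory cells rather than from mural cells of vessels.

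All positions are on GRCm38. Kbtbd11 (ENSMUSG00000055675) lies on the plus strand at chr8:15011025-15033333 and Sh2d5 (ENSMUSG00000045349) on the plus strand at chr4:138250403-138261332. Kif1a (ENSMUSG00000014602) lies on the minus strand at chr1:93015464-93101951 and Syt8 (ENSMUSG00000031098) on the plus strand at chr7:142434850-142440396. GENCODE release M21 gives them 4, 5, 11 and 11 transcripts. In each gene 1 transcript under 500 bases that held reads carried a large part of the deposited value in the stimulated libraries. It carried none in at least 1 sham library of each gene. The sequences that identify these short transcripts are shown first.

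Kif1a-209, 325 bases in 4 exons at chr1:93066132-93068758, has a first exon of 112 bases at chr1:93068647-93068758 that no other annotated Kif1a transcript holds. Its other 213 bases are coding sequence in the longer transcripts. Sh2d5-204, 459 bases in 5 exons at chr4:138250423-138255690, skips a 128-base exon at chr4:138253831-138253958, of which 87 bases are coding. Only 27 of its 429 windows of 31 bases, the ones across the junction of exons 2 and 3, are found in no other Sh2d5 transcript. Syt8-207, 211 bases in 2 exons at chr7:142434946-142438968, has 59 such windows of 181. Exons 1 to 3 of Kif1a-209, exons 3 to 5 of Sh2d5-204 and exon 2 of Syt8-207 are given 5′ to 3′ from the GENCODE M21 transcripts. Capitals mark exon 1 in Kif1a-209, and in the others the bases just past the junction that windows found in no other transcript of the gene reach.
Kif1a-209 exons 1 to 3: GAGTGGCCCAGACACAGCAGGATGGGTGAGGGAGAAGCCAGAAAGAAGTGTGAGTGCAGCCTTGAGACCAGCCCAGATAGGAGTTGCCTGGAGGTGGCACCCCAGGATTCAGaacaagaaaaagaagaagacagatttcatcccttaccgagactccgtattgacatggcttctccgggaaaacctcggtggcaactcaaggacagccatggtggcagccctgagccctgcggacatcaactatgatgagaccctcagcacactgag
Sh2d5-204 exons 3 to 5: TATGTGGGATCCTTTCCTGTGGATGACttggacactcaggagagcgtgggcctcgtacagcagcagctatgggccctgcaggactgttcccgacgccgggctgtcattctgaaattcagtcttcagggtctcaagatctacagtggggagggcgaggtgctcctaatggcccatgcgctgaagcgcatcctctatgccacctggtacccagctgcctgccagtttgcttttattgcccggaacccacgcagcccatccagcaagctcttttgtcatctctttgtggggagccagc
Syt8-207 exon 2: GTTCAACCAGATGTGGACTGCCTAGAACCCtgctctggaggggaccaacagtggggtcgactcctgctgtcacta
The short transcript of Kbtbd11, Kbtbd11-203, spans 224 bases in 2 exons at chr8:15032390-15032964, wholly inside the untranslated part of the main transcript. Of its 194 windows 28, all across its splice junction, are found in no other transcript of the gene.

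**Figure D1:**
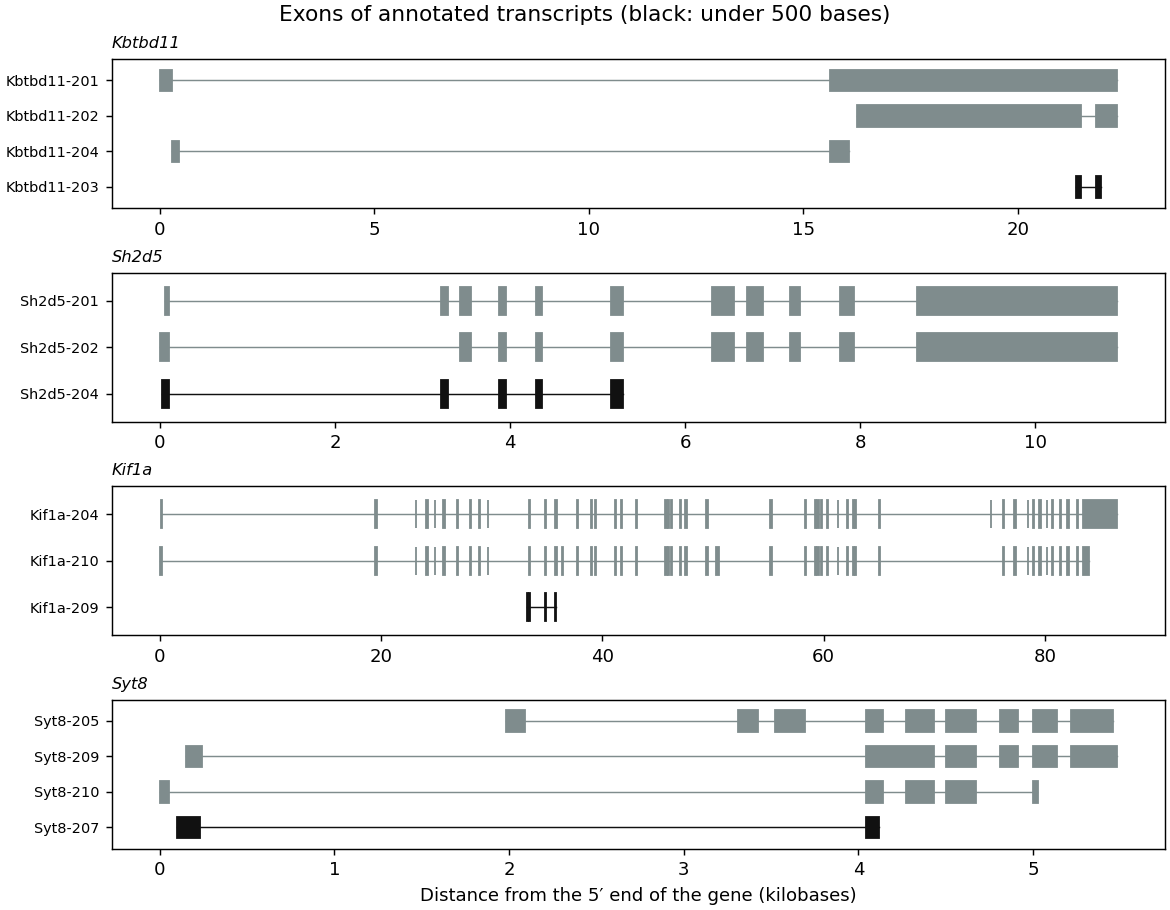
Exons of the short transcript and of up to 3 longer ones per gene, as boxes, against distance from the 5′ end of each gene in kilobases. Black marks the transcript under 500 bases, which covers a small part of the gene in Kif1a and Kbtbd11 and reaches from near the 5′ end into the gene in Sh2d5 and Syt8.

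The libraries held 17520338 to 23709220 estimated reads each. In the gene table no gene of 26559 passed edgeR's quasi-likelihood test at an adjusted p of 0.05, higher (0.0%) or lower (0.0%). At an unadjusted p under 0.05 edgeR gave 700 higher (2.64%) and 1172 lower (4.41%), and DESeq2 called 74 of 19835 higher (0.373%) and 153 lower (0.771%) after adjustment. In summed reads 1 gene of 26548 passed edgeR's test, the interleukin-1 receptor antagonist gene Il1rn (0.00377% higher, 0.0% lower), which was lost with any library left out. There edgeR gave 661 higher (2.49%) and 1327 lower (5.0%) at an unadjusted p under 0.05, and DESeq2 called 57 of 15222 higher (0.374%) and 156 lower (1.02%). The median log2 fold change over all genes was -0.023 in both. RNA of cell types that the gate excludes was present. The gate removed CD45 and CD31, yet Ptprc, which encodes CD45, stood at 926 to 1080 reads per 1000000 (RPM) in stimulated and 216 to 870 in sham libraries, and Pecam1, which encodes CD31, at 432 to 527 and 599 to 1158. In every library Ptprc and Pecam1 each held more reads than the pericyte genes Pdgfrb, Cspg4 and Mcam. S100a9, a neutrophil gene, held fewer reads than Pdgfrb and Mcam in every sham library. The library of sham replicate 2 stood apart, with the lowest Ptprc and the highest Pecam1, so values without it are given for each gene.

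Kbtbd11 had more deposited counts and more reads in every stimulated library than in any sham library. The deposited gene counts were 2214, 2034 and 2585 in stimulated replicates 1 to 3 and 732, 499 and 664 in sham replicates 1 to 3. The summed reads were 1292, 1876 and 1553 against 950, 319 and 868. Both groups were therefore separate in both sources, with sham replicate 2 the lowest in each. Groups that do not overlap with stimulated higher made up 6.12% of all genes in the gene table and 6.08% in summed reads, and since the genes were picked from this contrast nothing is read from that share.

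The size of the Kbtbd11 difference depended on the source. The log2 fold change was 1.81 (SE 0.23, n = 3 per group) in the gene table and 1.13 (SE 0.35) in summed reads. A log2 fold change above 1.5 was reached by 0.934% of genes in the gene table and 0.648% in summed reads. Without sham replicate 2 the values were 1.72 (SE 0.25) and 0.77 (SE 0.25), so the summed-read value was the more sensitive of the 2 to that library. With all libraries, counting only reads on the protein-coding transcript gave 1.67 (SE 0.29).

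The reads of Kbtbd11 fell almost wholly on 2 long transcripts. Kbtbd11-201, the protein-coding form of 6973 bases, had 726, 848 and 698 reads in stimulated and 309, 153 and 273 in sham libraries, with no overlap. Kbtbd11-202, annotated as a target of nonsense-mediated decay, had 553, 1014 and 838 reads against 639, 165 and 595. Its groups overlapped, since stimulated replicate 1 lay below sham replicate 1. As RPM, pooled over the group, stimulated stood to sham as 2.93 (exact 95% interval 2.70 to 3.19) for Kbtbd11-201 and 1.63 (1.53 to 1.74) for Kbtbd11-202. Such intervals cover counting error only, and PCR copies are not independent molecules. Kbtbd11-204, a non-coding form of 616 bases, had 5.71, 12.0 and 11.2 reads against 2.01, 0 and 0, a pooled ratio of 13.7 (3.48 to 119). All of Kbtbd11-202 lies within Kbtbd11-201, so how reads are shared between them is an estimate by the quantifier.

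Kbtbd11-203, the 224-base transcript, held 6.78, 2.26 and 6.01 reads in stimulated and 0, 1.52 and 0 in sham libraries. These few reads made up 54.1, 23.6 and 46.6% of the gene's TPM (reads scaled by transcript length and library) in the stimulated libraries and 0, 52.0 and 0% in the sham libraries. TPM divides reads by an effective length, which the deposited tables give per transcript. It exceeds the annotated length in the long transcripts that held most reads of Kbtbd11, Sh2d5 and Kif1a, Kbtbd11-201 and Kif1a-204 among them. It was 13 to 34.9 bases for Kbtbd11-203 against 8262 to 9263 for Kbtbd11-201. In stimulated replicate 1 a read on Kbtbd11-203 added 177 to the deposited count, and a read on Kbtbd11-201 added 0.67. With transcripts under 500 bases left out, the gene-table counts would be 1016, 1553 and 1380 against 732, 240 and 664. The groups still did not overlap, and the log2 fold change was 1.27 (SE 0.36).

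Sh2d5 also had more reads in every stimulated library, at a low level. Its gene-table counts were 61.8, 105.7 and 149.7 in stimulated and 13.3, 9.85 and 13.7 in sham libraries. Its summed reads were 38, 57.6 and 90 against 23, 16 and 24. Neither source showed any overlap, and stimulated replicate 3 was the highest in both. The log2 fold change was 3.02 (SE 0.42) in the gene table and 1.49 (SE 0.41) in summed reads. Without sham replicate 2 the values were 2.94 and 1.34.

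Sh2d5-204, the form that skips an exon, accounted for that gap between the sources. It held 2.66, 5.46 and 6.15 reads in the stimulated libraries and 0 in each sham library. Its effective length was 209 bases, and it took 66.5, 72.7 and 64.4% of the gene's TPM where it was present. A read on Sh2d5-204 added 14.1 to 15.7 to the deposited count, while a read on the coding transcripts added 0.55 to 0.64. Set against a floor of 3 reads in place of the 0 of the sham group, the 14 stimulated reads stood at 4.42-fold as RPM. Counting error of the 14 reads is not included, so this is not a lower limit.

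Without that transcript the Sh2d5 counts would be 20.7, 28.9 and 53.3 in stimulated against 13.3, 9.85 and 13.7 in sham libraries, still without overlap, with a log2 fold change of 1.41 (SE 0.49). The coding transcripts Sh2d5-201 and Sh2d5-202 share 98.3% of their bases, and the quantifier gave all reads of a library to one or the other in each sham library and nearly so in stimulated replicates 1 and 3. Summed, they held 35.3, 52.1 and 83.8 reads in stimulated and 23, 16 and 24 in sham libraries. Pooled over the group as RPM, all Sh2d5 reads, those of Sh2d5-204 included, stood as 2.80 (exact 95% interval 2.09 to 3.79). The first exon of Sh2d5-204 shares 44 windows of 31 bases with Kif17-202, a transcript of the kinesin gene Kif17 that overlaps Sh2d5 on the same strand. Kif17 itself had 12.9, 11.4 and 6.06 summed reads in stimulated and 35.2, 17.9 and 18.5 in sham libraries.

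**Figure D2:**
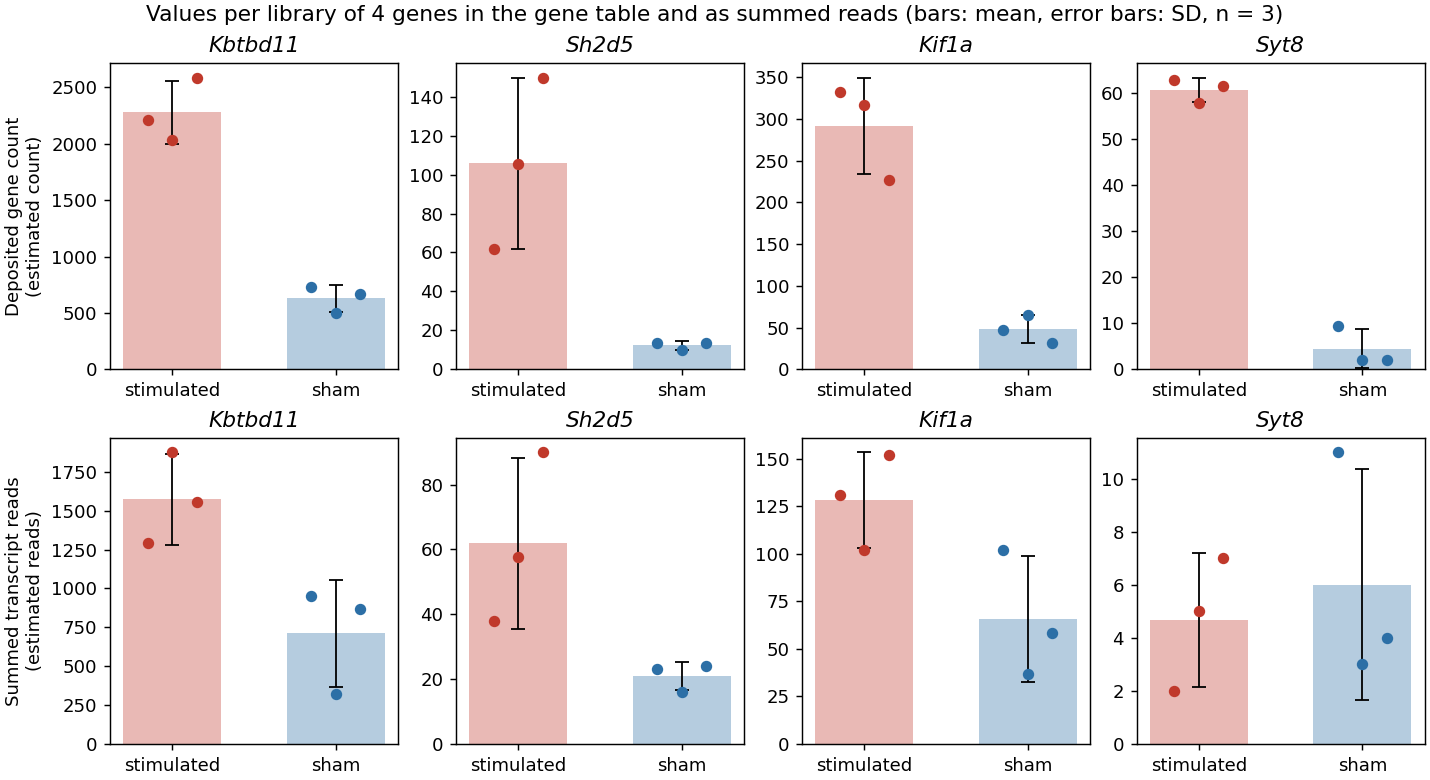
Deposited gene counts (upper row) and summed transcript reads (lower row) of the 4 genes, with points for libraries, bars for group means and error bars for SD (n = 3). Stimulated libraries lie above sham libraries in every upper panel, whereas in the lower row the groups meet for Kif1a (102.1 reads in the lowest stimulated and 102.2 in the highest sham library) and overlap for Syt8.

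Kif1a was separate between the groups in the gene table and not in plain reads. The gene-table counts were 332.7, 317.0 and 226.3 in stimulated and 47.0, 65.1 and 31.7 in sham libraries. The summed reads were 131.3, 102.1 and 152.0 against 102.2, 37.0 and 58.3. As RPM these are 7.21, 4.86 and 6.41 against 5.04, 2.11 and 2.67, so stimulated replicate 2 lay below sham replicate 1. After TMM scaling the CPM no longer overlapped, at 6.83, 5.13 and 6.65 against 4.48, 2.00 and 3.08. The separation in reads thus turned on the scaling. The log2 fold change was 2.56 (SE 0.38) in the gene table and 0.96 (SE 0.35) in summed reads, and without sham replicate 2 it was 2.93 and 0.68.

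The order of the stimulated libraries also changed with the source. Stimulated replicate 3 had the lowest Kif1a value in the gene table and the highest in summed reads. Kif1a-209 held 12.4, 13.5 and 7.18 reads in stimulated and 0, 1.77 and 0.60 in sham libraries. This was 91.7, 95.4 and 79.2% of the gene's TPM against 0, 64.9 and 43.4%. Its effective length was 76 bases in every library, and each read on it added 22.4 to 25.0 to the deposited count. On Kif1a-204, the longest form with 8206 annotated bases, a read added 0.16 to 0.17.

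Most Kif1a reads belonged to Kif1a-204, which encodes the motor protein, with 107, 81.3 and 139 reads in stimulated and 65.3, 19.8 and 55.2 in sham libraries. Pooled over the group as RPM, stimulated stood to sham as 2.21 (exact 95% interval 1.81 to 2.72) for Kif1a-204, as 15.6 (4.0 to 135) for the 33 against 2 rounded reads of Kif1a-209, and as 0.556 (0.286 to 1.05) for Kif1a-210. Kif1a-208, an internal form of 570 bases, held 0, 0 and 0.38 reads in stimulated and 7.89, 1.60 and 2.46 in sham libraries. The estimates for the transcripts thus did not all point the same way, on few reads. Kif1a-210 shares 92.9% of its bases with Kif1a-204, so how reads are shared between them is an estimate by the quantifier. The interval of Kif1a-210 covers no difference, and most reads of Kif1a-208 were in a single sham library. With transcripts under 500 bases left out the gene-table counts would be 27.6, 14.7 and 47.0 in stimulated and 47.0, 22.9 and 17.9 in sham libraries. The groups then overlapped, and the log2 fold change was 0.02 (SE 0.52). That value rests on the cut at 500 bases, which removed Kif1a-209 and kept Kif1a-208. Kif1a-208 supplied 30.3, 6.30 and 8.83 of the remaining sham counts and 0, 0 and 1.58 of the stimulated ones. No other cut was tested. Counting only reads on protein-coding transcripts gave a log2 fold change of 0.98.

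Syt8 had the largest gene-table difference of the 4 genes and the fewest reads. Its gene-table counts were 62.8, 57.7 and 61.6 in stimulated and 9.33, 1.97 and 2.13 in sham libraries. Its summed reads were 2, 5 and 7 against 11, 3 and 4. The separate groups of the gene table therefore overlapped in reads, where sham replicate 1 was the highest of all. The gene-table log2 fold change was 3.78 (SE 0.59), or 3.51 without sham replicate 2 and 4.72 without sham replicate 1. In summed reads Syt8 was below the filter on low counts, and with no filter its log2 fold change was -0.34 (SE 1.24).

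About 1 read in each stimulated library made up nearly all of the gene-table value of Syt8. Syt8-207 held 1, 1 and 0.944 reads in the stimulated and 0 in the sham libraries, and its effective length was 11 bases. That read supplied 96.7, 95.8 and 94.4% of the gene's TPM and 60.7, 55.3 and 58.1 of the deposited counts. Reads on Syt8-209, the transcript with the most reads, added 0.52 to 0.57 each. At this depth, 3 reads against 0, no difference in Syt8-207 could be shown, and no fold is given.

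Without transcripts under 500 bases, the Syt8 counts would be 2.06, 2.43 and 3.43 in stimulated and 9.33, 1.97 and 2.13 in sham libraries, which overlapped. Pooled over the group as RPM, all Syt8 reads stood as 0.737 (exact 95% interval 0.339 to 1.57), on 14 against 18 reads. The only reads on a protein-coding transcript were 3 on Syt8-205, in stimulated replicate 2. Syt8-209 had 0, 0 and 6.06 reads in stimulated and 8, 2.78 and 4 in sham libraries.

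**Figure D3:**
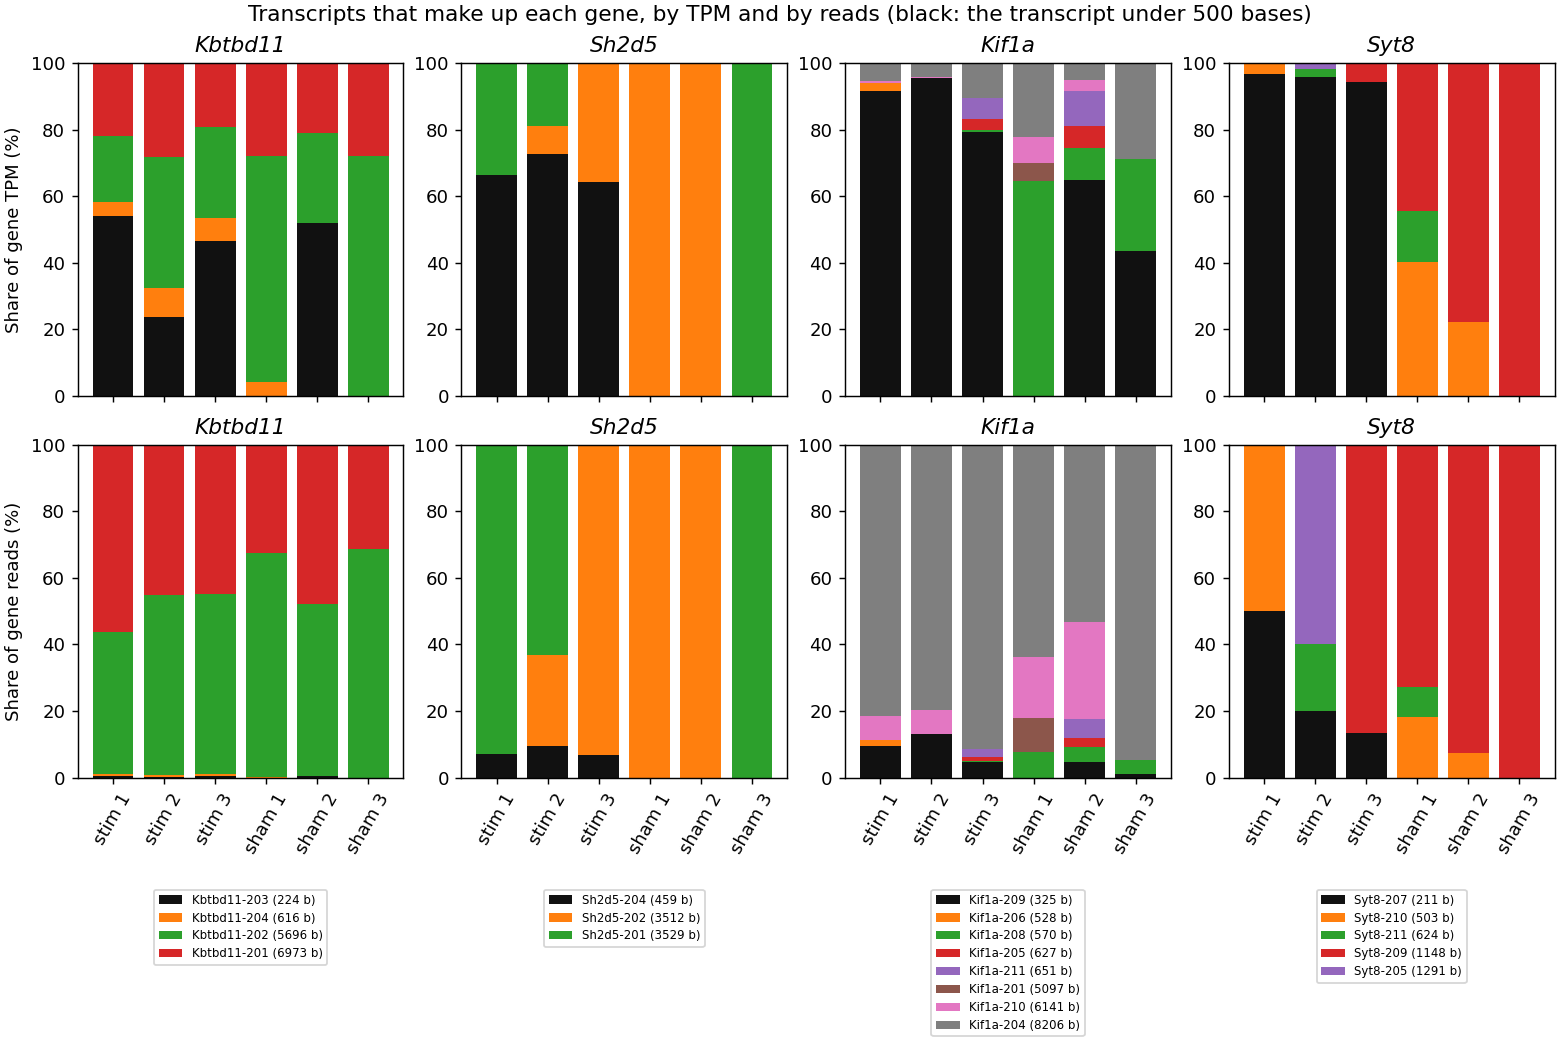
Share of each gene's TPM (upper row) and of its reads (lower row) by transcript, in percent, for each library, with the transcript under 500 bases in black. In Syt8 the black share is 94.4 to 96.7% of TPM in the stimulated libraries, and in Kbtbd11 it is under 1% of reads.

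**Figure D4:**
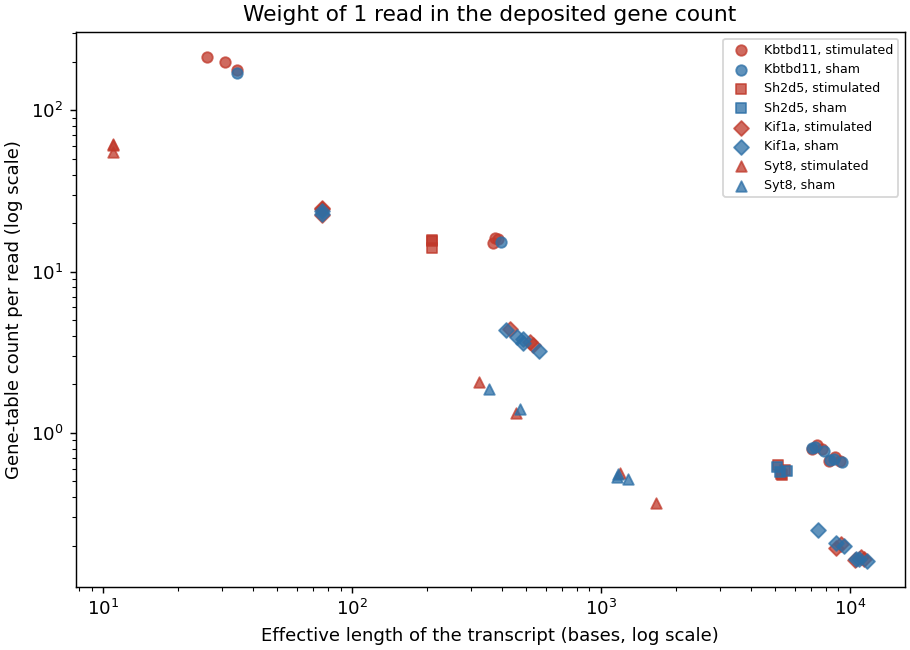
Contribution of 1 read to the deposited gene count against the effective length of the transcript in bases, both on log scales, for each transcript and library with at least 0.5 reads. The weight runs from 0.16 for a long Kif1a transcript to 213 for the 224-base transcript of Kbtbd11.

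The weight of a read, averaged over the gene, was separate between the groups for Syt8 and Sh2d5 and overlapped for the other two. For Syt8 the deposited count per read was 31.4, 11.5 and 8.79 in stimulated and 0.848, 0.658 and 0.534 in sham libraries. For Kif1a it was 1.49 to 3.11 against 0.46 to 1.76, and for Kbtbd11 1.08 to 1.71 against 0.76 to 1.56. For Sh2d5 the effective length averaged over the gene was 1985, 1603 and 1969 bases in stimulated and 5583, 5086 and 5267 in sham libraries. That mean is weighted by TPM, so reads divided by it equal the gene-table value up to a factor for the gene and for the library. Entering it as an offset to the summed reads therefore had to give back the gene-table log2 fold changes closely. For the genes that passed the filter it gave 1.81 for Kbtbd11, 3.03 for Sh2d5 and 2.60 for Kif1a. In the plot of fold changes by source, these values and those of the gene table are the highest of each gene.

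**Figure D5:**
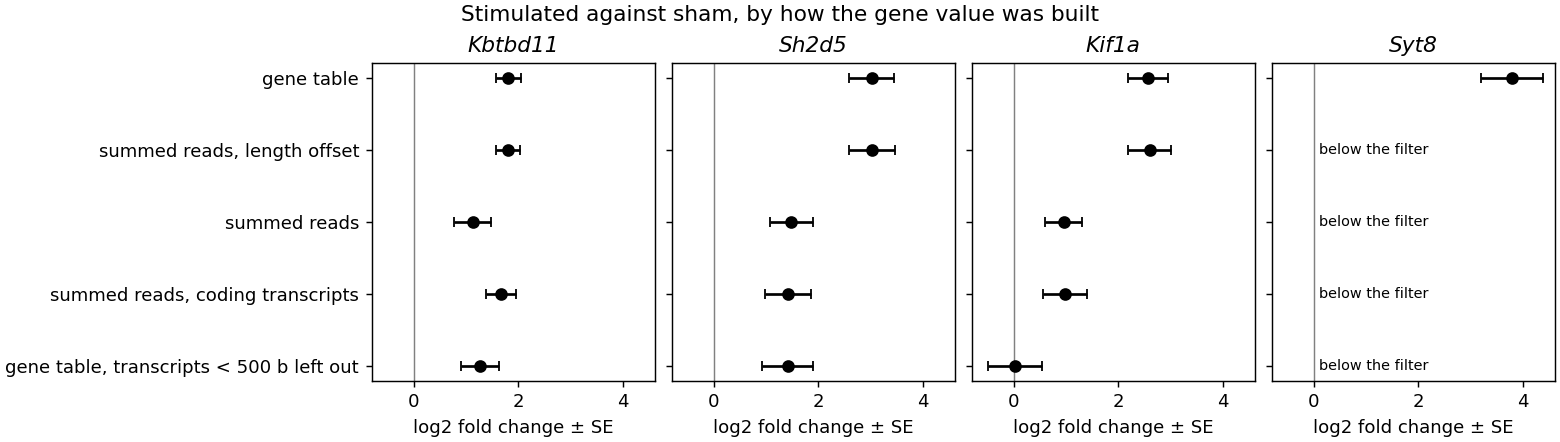
Log2 fold change of stimulated over sham with its SE for each gene, by how the gene value was built. For Kif1a the value goes from 2.56 in the gene table to 0.96 in summed reads and 0.02 with transcripts under 500 bases left out, and Syt8 passes the filter on low counts only in the gene table. The cut at 500 bases keeps Kif1a-208 (570 bases), which held more reads in sham libraries.

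The gap between the sources was 0.68 for Kbtbd11, 1.53 for Sh2d5 and 1.61 for Kif1a on the log2 scale. Over the 26276 genes tested in both, the median absolute gap was 0.0532, and 284 genes (1.08%) had a gap above 1. The table was higher in 158 of these and lower in 126. Transcripts under 500 bases held over 50% of the TPM but under 50% of the reads in 2083 of 24222 genes (8.6%) with at least 60 reads and a longer transcript. Over all libraries they held 36.8% of the TPM and 0.242% of the reads in Kbtbd11, 58.3 and 5.74% in Sh2d5, 80.9 and 6.08% in Kif1a, and 87.2 and 9.20% in Syt8. Kbtbd11 fell outside that class of genes, Sh2d5 and Kif1a inside it, and Syt8 had too few reads to be counted.

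Relatives of the 4 genes had gene-table values on both sides of 0. Among 49 tested genes of the BTB-kelch and CUL3 list, 22 were higher and 27 lower, with a median log2 fold change of -0.04. None passed edgeR's adjusted test, 0 higher and 2 lower had an unadjusted p under 0.05, and DESeq2 called 1 lower. That gene was Klhl4, a kelch protein, at 7.87 ± 0.32 CPM (SD, n = 3) in stimulated and 24.8 ± 10.0 in sham libraries, a log2 fold change of -1.66 (SE 0.33, edgeR adjusted p = 0.424). Cul3, the ligase scaffold itself, had 0.03 (SE 0.26). Klhl22 had -0.86 in the gene table and -0.34 in summed reads.

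In the list of SH2 adaptors and the BCR to Rac1 axis, 12 of 25 tested genes were higher and 13 lower, with a median of -0.07. None passed edgeR's adjusted test, 1 in each direction had an unadjusted p under 0.05, and DESeq2 called 1 higher. That 1 was Sh3bp2, an adaptor that binds SH3 domains, with a log2 fold change of 1.52 (SE 0.35, edgeR adjusted p = 0.424) in the gene table and 0.43 (SE 0.39) in summed reads. Like that of Sh2d5, its value was the lower one in summed reads. Bcr, the partner of SH2D5, had -0.11 (SE 0.30), and Tiam1, an exchange factor for Rac1, had 0.87 in the table and 0.28 in summed reads.

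Among 36 tested transport kinesins and adaptors, 12 were higher and 24 lower, with a median of -0.14. None passed edgeR's adjusted test, 0 higher and 3 lower had an unadjusted p under 0.05, and DESeq2 called 1 lower. That was Kif3a, a motor subunit of kinesin-2, at 4.95 ± 0.50 CPM (SD, n = 3) in stimulated and 12.7 ± 2.5 in sham libraries, a log2 fold change of -1.36 (SE 0.28, edgeR adjusted p = 0.424) in the gene table and -0.82 (SE 0.28) in summed reads. The closest relatives of Kif1a had values below 0, -0.56 (SE 0.31) for Kif1b and -0.62 (SE 0.33) for Kif1c, neither past the test. Kif17 had -0.17 (SE 0.57) in the gene table and -1.22 (SE 0.58) in summed reads.

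Of 35 tested synaptotagmins, related C2 proteins and SNAREs, 18 were higher and 17 lower, with a median of 0.05. None passed edgeR's adjusted test or was called by DESeq2, and 3 higher and 4 lower had an unadjusted p under 0.05. Syt7, a calcium sensor of slow vesicle release, had -1.21 (SE 0.32), Syt15 -1.54 (SE 0.49) and Syt11 0.71 (SE 0.27). Doc2b, a C2 protein of vesicle release, had 1.19 (SE 0.39) and Vamp1, a vesicle SNARE, 0.65 (SE 0.24). The synaptotagmins named here thus had values of both signs. Counts for the 4 lists are read against the 2.64% of all genes higher and 4.41% lower at that unadjusted p.

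Genes next to the 4 were also described. Kbtbd11 is overlapped on the other strand by 5830468F06Rik, with 49.0, 35.5 and 25.4 reads in stimulated and 18.0, 26.0 and 12.1 in sham libraries (log2 fold change 0.95, SE 0.52), and by Gm37844 (-0.32, SE 0.39). The library kit keeps strand, but whether the counting used it is not given in the sources used here, so reads of these pairs may not be fully apart. Arhgef10, 9940 bases from Kbtbd11, had -0.82 (SE 0.38). Hp1bp3, 5720 bases from Sh2d5, had -0.14 (SE 0.26), and Ddost on its other side -0.21 (SE 0.25). Beside Kif1a, Aqp12 and Agxt had at most 5 reads in any library and were not tested. Beside Syt8, Ctsd had -0.28 (SE 0.28). Tnni2, a fast-fibre troponin gene 1412 bases from Syt8, had 38, 100 and 244 reads against 51, 48 and 116 (1.04, SE 0.57), with overlapping groups. None of the tested neighbours passed edgeR's adjusted test.

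Over the 6 libraries the genes most like Kbtbd11 in log2 CPM of the gene table were Acod1 (Pearson r = 0.992), S100a9 (0.981) and Il1rn (0.979), with 21 of 12032 genes above 0.95. For Sh2d5 they were Il6ra (0.980), Anapc16 (0.974) and Nav2 (0.973), with 12 of 12033. For Kif1a they were Hcar2 (0.989), Ccr1 (0.979) and Trem1 (0.979), with 17 of 12032. For Syt8 they were Gpr83 (0.989), Atp8b4 (0.985) and Olfr1410 (0.985), with 26 of 12033. These likenesses rest on 6 points in 2 groups and are a description. All genes of a library share its depth and cell makeup, and markers of several cell types differed between the groups, as given below. In summed reads they were lower, at 0.78, 0.82 and 0.76 for the Kbtbd11 partners and 0.69, 0.72 and 0.79 for those of Kif1a. Of the Sh2d5 partners, Il6ra had 0.84, Anapc16 0.94 and Nav2 0.90. The partners were picked for the highest r in the gene table, so nothing is read from lower values in summed reads. Syt8 was below the filter there and has no such r. Its gene-table values rest on about 1 read per stimulated library.

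Markers of other cells differed between the groups as well. Of 8 neutrophil markers, 8 were higher in stimulated libraries, 7 of them at an unadjusted p under 0.05, none past edgeR's adjusted test and 4 called by DESeq2. Their mean log2 CPM was 3.58 to 4.34 in stimulated and 2.14 to 2.64 in sham libraries, and S100a9 stood at 29.2 to 60.6 against 6.51 to 10.2 RPM. All 10 endothelial markers were lower, at 7.0 to 7.60 against 7.67 to 9.04, with 8 at an unadjusted p under 0.05, none past edgeR's adjusted test and 3 called by DESeq2. Of 11 pericyte markers 10 were lower, at 2.76 to 3.96 against 3.72 to 4.79, with 2 at that unadjusted p and none past either adjusted test. All 10 lymphocyte markers were higher, at 6.92 to 7.18 against 3.96 to 6.68, with 3 at that unadjusted p and none past either adjusted test. The lymphocyte 3.96, endothelial 9.04 and pericyte 4.79 were all sham replicate 2. Sham replicates 1 and 3 stood at 6.62 and 6.68 for lymphocyte, 7.67 and 8.33 for endothelial, and 3.72 and 3.91 for pericyte markers. Fewer cells of a type and less RNA per cell cannot be told apart in such data. The part of these cells in the values of the 4 genes was not tested.

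Neuron markers were on both sides of 0. Of 10 neuron markers 2 were higher and 8 lower, at a mean log2 CPM of 0.59 to 0.79 in stimulated and 0.13 to 1.40 in sham libraries. Rbfox3, a nuclear protein of neurons, had 18, 17 and 11 reads against 26, 25 and 7. No neuron marker named here was at 0. Of 8 Schwann cell markers 5 were higher, at 1.47 to 3.12 against 1.85 to 2.29, and all 8 myofibre markers were higher, at 2.27 to 3.99 against 1.63 to 2.38. Stimulated replicate 3 had the highest myofibre and Schwann cell levels, and it also had the highest Sh2d5 value. Tnni2, also highest there, is itself a member of the myofibre list. The part of myofibres and Schwann cells in the Sh2d5 value was not tested.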

How the data were processed

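Total RNA of the sorted cells was sequenced with a stranded low-input kit according to the protocols in the labels. In the submitters' processing notes stand Salmon 0.8.2, Trimmomatic 0.36, bcl2fastq 2.17.1.14, edgeR, R 3.5.1 and GRCm38, while how each was run is not given in the sources used here. Deposited by the authors were estimated counts per gene and, for 135181 transcripts in each library and per the file headers, TPM, estimated read counts, length and effective length. In 100% of the 14096 genes whose TPM exceeded 0.1 throughout, the gene value equalled TPM times 1 factor for the gene and 1 for the library, within 1%. The gene values are thus not sums of reads.

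The gene table, and reads summed per gene, were each rounded, filtered with filterByExpr (minimum count 10, minimum total 15), scaled by TMM and tested with edgeR 4.0.16 (R 4.3.3, robust quasi-likelihood F test, Benjamini-Hochberg at 0.05), a procedure tested on simulated data. The SE is the size of the log2 fold change over the square root of F. DESeq2 1.42.0 and limma 3.58.1 (voom) were among the alternatives. Libraries came from separate mice by the stated group sizes. Counting intervals are exact 95% intervals of the ratio of reads, given the library totals. Transcript names, exons and sequences come from GENCODE release M21, matched to the deposited transcripts by identifier. That release holds 95.8% of the deposited gene identifiers, so the reads may have been quantified on another release. The 4 genes and all lists (4 families and markers of 12 cell types) were chosen with earlier results of these data known. The rule named the 4 genes, their transcripts with a mean TPM of at least 0.1 (Kbtbd11-201, Kbtbd11-202, Kbtbd11-203 and Kif1a-209), their neighbours, the 3 genes most like each, up to 4 genes per family by smallest p, and Kif1b, Kif1c, Kif17, Cul3, Bcr, Syt7 and Syt11. Other transcripts and Il1rn were picked after their values were seen.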

Additional observations from a re-analysis of the deposited data

How the results depend on the processing

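No log2 fold change of Kbtbd11, Sh2d5 or Kif1a went below 0 under the alternatives run in either source, but that of Kif1a in the gene table was 0.02 (SE 0.52) with transcripts under 500 bases left out. That cut removed Kif1a-209 and kept Kif1a-208 of 570 bases, which held more reads in sham libraries. Under that alternative Syt8 was below the filter and could not be fitted, and its mean count was 2.64 in stimulated against 4.48 in sham libraries. Under the other gene-table alternatives Syt8 stayed above 0. Leaving out each library in turn gave 1.72 to 1.90 for Kbtbd11, 2.77 to 3.29 for Sh2d5, 2.37 to 2.93 for Kif1a and 3.49 to 4.72 for Syt8 in the gene table, and 0.77 to 1.39, 1.22 to 1.71 and 0.68 to 1.30 for the first 3 in summed reads. On the log2(TPM + 0.1) scale, which understates low genes, the values were 1.19, 0.58, 1.27 and 1.28.

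In the gene table, where 0 genes were called in each direction, the count higher was 3 at an adjusted p of 0.1, 74 with DESeq2, 3 with RLE size factors, 44 with no filter, 1 with transcripts under 500 bases left out (an alternative chosen after seeing the data) and 0 to 1 with each library left out, the 1 without stimulated replicate 3. The count lower was 153 with DESeq2, 65 with no filter and 0 to 0 with each library left out. In summed reads the 1 gene called higher became 57 with DESeq2, 87 with no filter, and 0 with voom, with a filter of 1 CPM in 3 libraries, with the length offset, with the replicate block and with each library left out (0 to 0). The 0 called lower became 156 with DESeq2 and 264 with no filter, and 0 to 0 with each library left out. The cause was not tested. Same-numbered libraries deviated together with r of 0.317, -0.161 and 0.128. So few libraries cannot decide whether the numbers pair the samples, and the main fit treats them as unpaired. With the replicate block the gene table gave 0 calls in each direction.

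Depth limits Syt8, with 32 reads in all, and the short transcripts, with at most 33 reads in a group. Macrophage and monocyte (3 of 10 higher), smooth muscle (0 of 6), fibro-adipogenic (0 of 6), adipocyte (1 of 3 tested) and satellite cell (5 of 5 tested) lists had no gene past edgeR's adjusted test.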
